A study of Rattus norvegicus with 8 samples.

Results

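Glycolysis and hypoxia response genes were examined as a set of 35 rat genes, 24 of them glycolytic (enzymes, glucose and lactate carriers, and the kinases that steer pyruvate and fructose phosphate) and 11 of them regulators or targets of the hypoxia-inducible factors (HIFs). The genes were fixed by name, and their probes were found by the RefSeq accession on the array: 34 of the 35 had a probe, with 42 probes in all among the 30367 on the array. Egln1 was matched to no probe in this way and is not analysed here. A probe was tested when it was well above background on at least 3 of the 4 arrays of either group, which left 33 members among 12411 genes tested. Pdk1 did not reach that level, since its probe was well above background on 1 colistin array and 2 saline arrays.

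The kidney samples came from male rats aged 10 weeks, 4 samples after colistin at 30 mg/kg and 4 after saline, and were taken at day 28. Below, a numbered colistin or saline kidney means the sample of that number in its group. Colistin, a last-resort antibiotic of the polymyxin family, is toxic to tubule cells of the kidney. The tissue is labelled kidney and the series title speaks of injured tubules, but whether tubules were dissected out is not stated. The samples are numbered within each group but are not said to be separate animals, and each p-value measures sample-to-sample spread that may be partly technical.

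Each sample was hybridised alone, labelled with Cy3, to 1 Agilent array. The colistin arrays were brighter: the 75th percentile of the processed signal was 271 to 317 on colistin arrays and 156 to 197 on saline arrays, and 79.1% to 83.9% of spots on colistin arrays and 69.3% to 75.8% on saline arrays were well above background. The colistin arrays were also more alike, with a mean correlation to the other arrays of the group across genes of 0.873 to 0.896 for colistin and 0.777 to 0.826 for saline. The first principal component (31.9% of the variance) set the groups apart, with colistin arrays at 55.3 to 80.6. Saline arrays 1 to 4 were at -60.0, -34.1, -29.1 and -149 on it. On the second principal component (20.6%) saline arrays 1 and 4 were farthest apart, at 96.3 and -109. All levels below are log2 of the signal relative to the array's own 75th percentile, so that 0 is a signal at that percentile. A level is comparable between arrays for 1 probe, and not between probes. The precision of each value is limited by having 4 arrays per group.

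Glycolysis splits glucose into pyruvate in the cytosol and yields ATP without oxygen, and the pyruvate is then either reduced to lactate or oxidised in mitochondria. The proximal tubule, the bulk of the renal cortex, has little glycolytic activity, oxidises fatty acids and makes glucose through the reverse pathway, whereas the distal nephron and the medulla use glucose more heavily. The HIF alpha subunits are hydroxylated by the EGLN prolyl hydroxylases when oxygen is present and are then degraded through the von Hippel-Lindau protein. When oxygen falls they persist, pair with ARNT and bind short elements in genes for glucose uptake, glycolysis, angiogenesis and adaptation to low oxygen. In the kidney the subunit encoded by Hif1a is found mainly in tubular cells, and that encoded by Epas1 mainly in endothelial and interstitial cells.

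HIF dimers bind a core of ACGTG or GCGTG. Promoters from RefSeq on the assembly GRCr8, 250 bases before to 50 bases after the annotated start, were searched for both cores on both strands. An ACGTG inside CACGTG counts on both strands. The table held 33 of the 35 members. ACGTG stood in 18 of the 33 (54.5%), in 19.3% of the 33469 promoters of the table and in 23.8% of the 10139 with a tested gene. GCGTG stood in 15 of the 33 (45.5%), in 29.7% of all promoters and in 44.4% of those of tested genes. ACGTG was in 11 of 23 glycolytic members and in 7 of 10 hypoxia members. A match describes the letters of the window and is not a binding site, and no binding was measured here.

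The promoters of 4 members are shown, those of Ldha and Ankrd37 with the most matches, and those of Pfkp and Epas1 because these members had the largest differences between groups. Each runs 5′ to 3′ on the strand of its gene, with matches to either core on either strand in capitals. The windows were chr1:106507842-106508141 on the plus strand for Ldha, with 6 matches, chr16:53001257-53001556 on the plus strand for Ankrd37, with 5, chr17:68639563-68639862 on the plus strand for Pfkp, with 2, and chr6:13624680-13624979 on the minus strand for Epas1, with 0.
Ldha: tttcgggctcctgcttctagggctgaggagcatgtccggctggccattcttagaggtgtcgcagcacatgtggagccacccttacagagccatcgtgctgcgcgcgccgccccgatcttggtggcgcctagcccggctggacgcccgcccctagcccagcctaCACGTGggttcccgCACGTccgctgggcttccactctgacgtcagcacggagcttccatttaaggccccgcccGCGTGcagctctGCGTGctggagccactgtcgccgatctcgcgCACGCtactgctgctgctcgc
Ankrd37: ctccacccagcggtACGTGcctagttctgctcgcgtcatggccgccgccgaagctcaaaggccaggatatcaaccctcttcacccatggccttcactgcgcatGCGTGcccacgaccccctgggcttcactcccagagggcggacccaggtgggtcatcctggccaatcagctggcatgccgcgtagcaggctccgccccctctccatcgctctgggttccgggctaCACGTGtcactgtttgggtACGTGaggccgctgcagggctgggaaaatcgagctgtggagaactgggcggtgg
Pfkp: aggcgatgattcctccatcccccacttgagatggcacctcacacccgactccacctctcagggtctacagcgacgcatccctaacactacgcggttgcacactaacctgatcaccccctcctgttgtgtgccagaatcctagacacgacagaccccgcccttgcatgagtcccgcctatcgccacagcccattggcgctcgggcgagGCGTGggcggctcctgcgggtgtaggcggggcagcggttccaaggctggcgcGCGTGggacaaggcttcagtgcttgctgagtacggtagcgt
Epas1: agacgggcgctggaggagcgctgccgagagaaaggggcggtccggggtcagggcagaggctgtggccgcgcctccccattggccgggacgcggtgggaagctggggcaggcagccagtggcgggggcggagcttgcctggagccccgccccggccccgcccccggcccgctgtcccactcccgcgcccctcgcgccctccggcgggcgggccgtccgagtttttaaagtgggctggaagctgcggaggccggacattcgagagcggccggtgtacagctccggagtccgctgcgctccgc
The matches of Ldha lie close to the start of the gene, those of Ankrd37 are spread over the stretch before it, those of Pfkp lie on either side of the start, and the Epas1 window is rich in G and C but holds neither core.

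No member passed the test of colistin against saline, 0 of 33 at an adjusted p under 0.05 (limma with Benjamini-Hochberg adjustment over all 12411 genes). Over all genes 2.00% passed, 1.46% higher and 0.540% lower after colistin. At an unadjusted p under 0.05 there were 7 members of 33, Pfkp, Pfkl, Pdk2, Pdk4, Epas1, Egln3 and Adm, which is 21.2% beside 22.7% of all genes. The 4 values of each group lay apart, without overlap, in 5 members (15.2%) and in 18.6% of all genes. The members' counts were therefore near the background on each of these measures. The median standard error of the members' fold changes was 0.47 on the log2 scale, beside 0.56 for all genes. The smallest absolute log2 fold change of any gene that passed was 1.48, and 27 members had a fold change below that size. The 33 fold changes were split into 16 above 0 and 17 below it, with a median of -0.25 beside -0.14 for all genes.

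**Figure D1:**
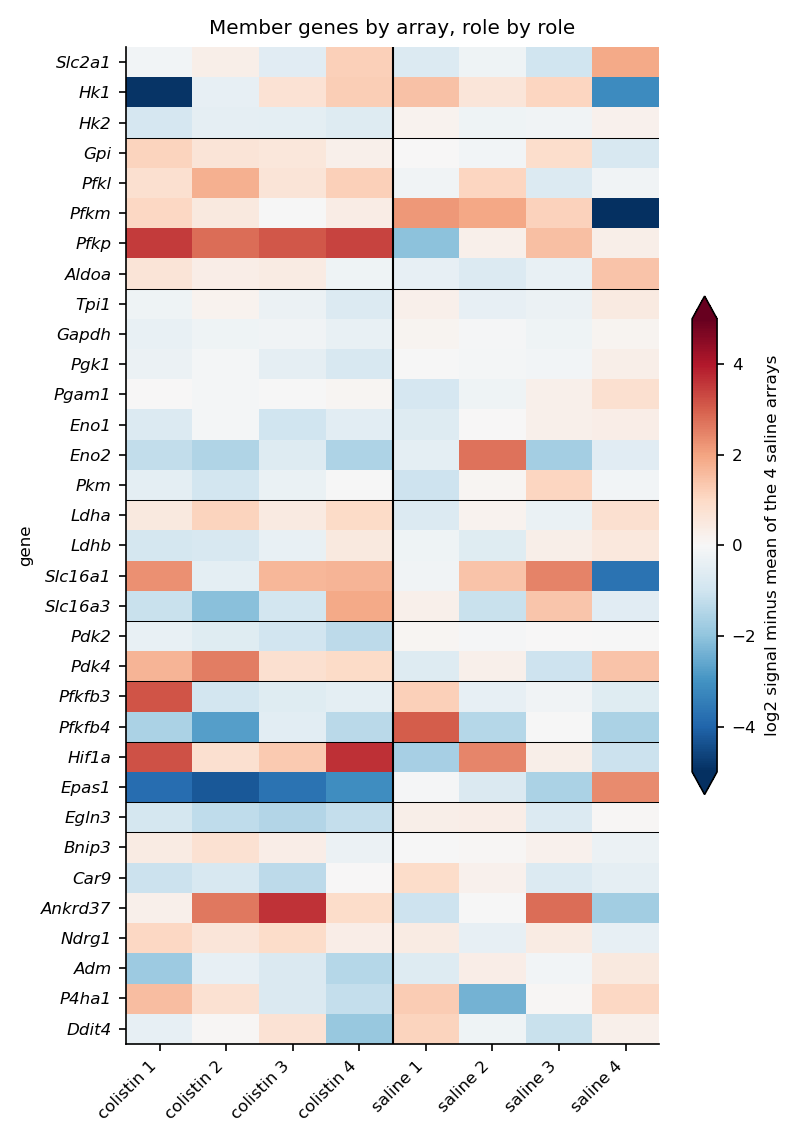
Level of each tested member on each of the 8 arrays, shown as the log2 signal minus that gene's mean over the 4 saline arrays, with colistin arrays left of saline arrays and genes grouped by role. Pfkp is higher and Hk2, Pdk2, Epas1 and Egln3 are lower on every colistin array than on any saline array. Fold changes are above 0 in 5 of 5 upper glycolysis members, which leave out hexokinase, and below 0 in 6 of 7 lower glycolysis members. Hk1 and Hk2 are below 0, and Pfkm is at -1.27 without saline array 4. No member passed the test.

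Members passed the test in some other settings. With normexp background correction, which estimates the background by a model and compresses dim signals, 6 members passed (Egln3, Epas1, Hk2, Ndrg1, Pdk2 and Pfkp, 18.2%), and so did 27.3% of all genes. With quantile scaling Epas1 passed, beside 2.17% of all genes. With array weights Epas1 and Pfkp passed, beside 2.51% of all genes. Without saline array 1 Pfkp passed (1.44% of all genes), without saline array 3 Epas1 and Pfkp passed (1.58%), and without saline array 4 Epas1 passed (2.05%). Pfkp and Epas1 were thus the members closest to the threshold, and 27 members passed in no setting tried.

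**Figure D2:**
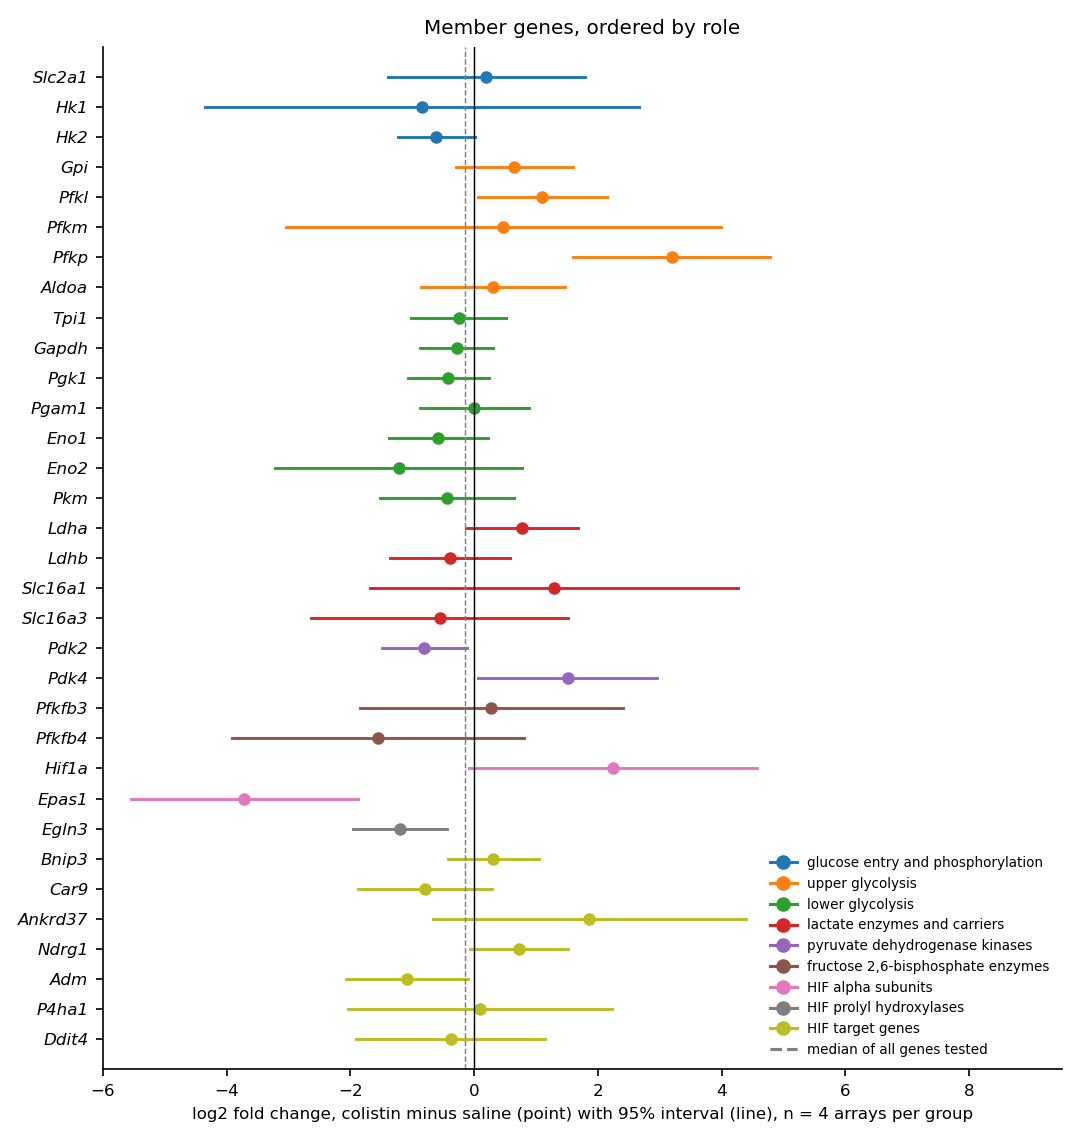
Log2 fold change, colistin minus saline, of the 33 tested members with 95% confidence intervals, grouped by role. Pfkp at 3.19 and Epas1 at -3.71 are the farthest from 0, and the widest intervals are those of Hk1 and Pfkm.

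Glucose enters through the facilitative transporter encoded by Slc2a1 and is trapped by hexokinases. Slc2a1 was at 1.65, 2.11, 1.23 and 3.0 in colistin kidneys 1 to 4 and at 1.11, 1.59, 0.81 and 3.71 in saline kidneys 1 to 4. The groups overlapped, and the fold change was 0.19 ± 0.69 (log2 ± SE, n = 4 per group, adjusted p = 0.885 by limma). Hk2, the inducible hexokinase that can dock on mitochondria, was at -2.18, -1.80, -1.83 and -1.97 in colistin kidneys and at -1.15, -1.54, -1.52 and -1.13 in saline kidneys. Each colistin value lay below each saline value, by a small margin. Hk2 had a fold change of -0.61 ± 0.27 (95% interval -1.24 to 0.015, adjusted p = 0.227 by limma). With normexp it was -0.52 (adjusted p = 0.0424). Hk1, the constitutive hexokinase, ranged from -2.91 to 3.24 in colistin kidneys and from -1.12 to 3.46 in saline kidneys. Its lowest value in each group, on colistin array 1 and saline array 4, stood far from the rest, and the 95% interval of the fold change ran from -4.34 to 2.66 around -0.84.

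The upper steps of glycolysis after hexokinase, up to the splitting of fructose bisphosphate, had 5 members. All 5 had fold changes above 0, with a median of 0.65, and Pfkl, Pfkm and Pfkp among them are isoforms of 1 enzyme. The hexokinases Hk1 and Hk2, a step earlier, had fold changes of -0.84 and -0.61. Over all genes, 5596 of 12411 fold changes were above 0. With normexp the sign of Pfkm turned (-0.48), and that of the other 4 upper glycolysis members did not. Pfkp, the platelet isoform of phosphofructokinase and a rate-setting step of the pathway, was at 2.92, 2.21, 2.53 and 2.81 in colistin kidneys and at -2.61, -0.32, 0.92 and -0.28 in saline kidneys. The colistin values were close together and all above the highest saline value, while the saline values were spread widely with array 1 lowest. The means were 2.62 ± 0.31 in colistin kidneys and -0.57 ± 1.48 in saline kidneys (SD, n = 4 each), a 9.14-fold difference. The log2 fold change was 3.19 ± 0.69 (95% interval 1.6 to 4.78), with an unadjusted p of 0.00162 and an adjusted p of 0.0641 in limma's fit across all genes. Leaving out 1 array at a time gave adjusted p from 0.0432 to 0.16, and slide as a block 0.147. The difference within slides 1, 2 and 3 was 3.66, 2.86 and 1.94, so it kept its direction on each slide. Without saline arrays 1 and 4 the fold change was 2.32 (adjusted p = 0.0852).

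Pfkl, the liver isoform, was at 2.09, 3.04, 1.93 and 2.46 in colistin kidneys and at 1.09, 2.35, 0.60 and 1.09 in saline kidneys. Only saline kidney 2 reached into the colistin range. A fold change of 1.1 ± 0.45 resulted (adjusted p = 0.204 by limma), and a second Pfkl probe gave 0.29. Pfkm, the muscle isoform, was at -0.49, -1.03, -1.51 and -1.13 in colistin kidneys and at 0.65, 0.41, -0.37 and -6.71 in saline kidneys. The probe was not well above background on saline array 4, and that array alone placed the saline mean below the colistin mean: the fold change was 0.47 ± 1.53 with it and -1.27 without it. Gpi, which interconverts glucose and fructose phosphates, had a fold change of 0.65 ± 0.41, with colistin values of 2.93 to 3.77 and saline values of 1.87 to 3.53. Aldoa, the aldolase of muscle and most tissues, had 0.30 ± 0.51. Its values were 2.55 to 3.39 in colistin kidneys and 2.07 to 2.38 in saline kidneys 1 to 3, with 4.18 in saline kidney 4.

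The lower steps of glycolysis, from triose phosphate to pyruvate, had 6 of 7 fold changes below 0 and a median of -0.42. Over all genes, 6815 of 12411 were below 0. Gapdh, the glyceraldehyde phosphate dehydrogenase often used as a reference gene, was at 6.76, 6.93, 6.96 and 6.78 in colistin kidneys and at 7.29, 7.08, 6.92 and 7.26 in saline kidneys. Its groups overlapped by saline kidney 3 only. Gapdh had a fold change of -0.28 ± 0.26 (95% interval -0.88 to 0.31, adjusted p = 0.523 by limma), -0.24 and -0.013 by its 2 other probes, and 0.090 with quantile scaling. Pgam1, a phosphoglycerate mutase, was at 5.21, 5.10, 5.16 and 5.28 in colistin kidneys and at 4.35, 4.98, 5.44 and 5.97 in saline kidneys. The colistin values sat together in the middle of the saline range, and the fold change was 0.0031 ± 0.38 (95% interval -0.88 to 0.89). Gapdh and Pgam1 were the 2 members whose 95% interval lay wholly within a 2-fold change in either direction, beside 5.17% of all genes.

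The remaining lower-pathway members overlapped between groups. Pgk1, a phosphoglycerate kinase that makes ATP, was at 3.71 to 4.40 in colistin kidneys and at 4.36 to 4.79 in saline kidneys, with a fold change of -0.42 ± 0.29. Eno1, the ubiquitous enolase, was at 4.87 to 5.75 in colistin kidneys and at 5.24 to 6.20 in saline kidneys, with a fold change of -0.58 ± 0.35. Tpi1, triose phosphate isomerase, was at 4.59 to 5.44 in colistin kidneys and at 4.85 to 5.70 in saline kidneys, with a fold change of -0.25 ± 0.34, and -0.019 by its second probe. None of these 3 had colistin values wholly below its saline values. Pkm, the pyruvate kinase of muscle and of dividing cells, was at -0.12 to 0.78 in colistin kidneys and at -0.23 to 1.87 in saline kidneys, with a fold change of -0.43 ± 0.47. Eno2, the enolase of neurons, had -1.22 ± 0.87 through 1.99 in saline kidney 2, and its second probe gave 0.090. Its colistin values were -2.27 to -1.37, and the other 3 saline values were -2.43 to -1.21. The adjusted p of these 5 genes lay between 0.337 and 0.673 in limma's fit.

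Lactate dehydrogenase is a tetramer of the A and B chains encoded by Ldha and Ldhb. Ldha was at 4.33, 4.96, 4.29 and 4.80 in colistin kidneys and at 3.16, 4.02, 3.5 and 4.63 in saline kidneys. Only saline kidney 4 reached into the colistin range. Ldha had a fold change of 0.77 ± 0.39 (95% interval -0.14 to 1.67, adjusted p = 0.276 by limma), a 1.70-fold difference of the means. Ldhb was at 3.01, 3.06, 3.51 and 4.37 in colistin kidneys and at 3.64, 3.28, 4.19 and 4.39 in saline kidneys, with a fold change of -0.39 ± 0.42. The monocarboxylate carriers Slc16a1 and Slc16a3, which move lactate across the cell membrane, had fold changes of 1.29 ± 1.29 and -0.56 ± 0.90. Slc16a1 was at -2.26 to 0.50 in colistin kidneys and at -5.49 to 0.70 in saline kidneys. Slc16a3 was at -4.68 to -0.67 in colistin kidneys and at -3.68 to -1.19 in saline kidneys. Both spread widely within groups and overlapped between them. Slc16a1 was not well above background on saline array 4 and turned to -0.66 without saline arrays 1 and 4.

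The pyruvate dehydrogenase kinases switch off the entry of pyruvate into mitochondrial oxidation. Pdk2, the widely expressed form, was at 4.85, 4.59, 4.26 and 3.92 in colistin kidneys and at 5.30, 5.16, 5.22 and 5.18 in saline kidneys. Each colistin value lay below the tightly grouped saline values. Pdk2 had a fold change of -0.81 ± 0.30 (95% interval -1.50 to -0.12, adjusted p = 0.178 by limma). Pdk4, the form induced by fasting and fatty acids, was at 0.74, 1.62, -0.15 and 0.01 in colistin kidneys and at -1.59, -0.70, -2.0 and 0.46 in saline kidneys. Saline kidney 4 lay within the colistin range and the other 3 below it. Pdk4 had a fold change of 1.51 ± 0.63 (adjusted p = 0.206). Pdk1, the HIF-induced form, was not tested, with values of -7.41, -8.16, -8.02 and -2.94 in colistin kidneys and -4.38, -5.67, -3.55 and -6.0 in saline kidneys that were mostly not well above background.

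Pfkfb3 and Pfkfb4 encode enzymes that make and remove the fructose bisphosphate that activates phosphofructokinase. Pfkfb3 was at 2.65, -1.42, -1.08 and -0.99 in colistin kidneys and at 0.70, -0.91, -0.65 and -1.09 in saline kidneys. Colistin kidney 1 alone set its mean apart, and the fold change was 0.28 ± 0.92 with it and -0.67 without it. The second Pfkfb3 probe gave -1.52. Pfkfb4 was at -3.74, -4.89, -2.67 and -3.48 in colistin kidneys and at 0.89, -3.57, -2.16 and -3.74 in saline kidneys, with a fold change of -1.55 ± 1.03. Saline kidney 1 was far above the other 7.

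The 2 HIF alpha subunits had fold changes of opposite sign. Epas1 was at -3.27, -3.70, -3.17 and -2.56 in colistin kidneys and at 0.48, -0.20, -1.05 and 2.91 in saline kidneys. All colistin values lay below all saline values, and saline kidney 4 was the highest. The means were -3.18 ± 0.47 in colistin kidneys and 0.54 ± 1.70 in saline kidneys (SD, n = 4 each), so the colistin mean was 13.1-fold lower. The log2 fold change was -3.71 ± 0.80 (95% interval -5.54 to -1.88), with an unadjusted p of 0.00152 and an adjusted p of 0.0624 in limma's fit. The adjusted p ranged from 0.0302 to 0.15 when 1 array was left out and was 0.166 with slide as a block. Within slides 1, 2 and 3 the difference was -5.40, -2.97 and -1.87, below 0 on each. Without saline arrays 1 and 4 the fold change was -2.55 (adjusted p = 0.0684).

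Hif1a was at 1.08, -1.30, -0.80 and 1.52 in colistin kidneys and at -3.78, 0.32, -1.83 and -3.18 in saline kidneys. Saline kidney 2 lay within the colistin range, and the other 3 saline kidneys lay below it. The fold change was 2.24 ± 1.01 (95% interval -0.075 to 4.56, adjusted p = 0.23 by limma), with 2.18, -1.12 and 3.14 within slides 1, 2 and 3. It was 0.88 without saline arrays 1 and 4, 1.21 with normexp, and 1.69 to 3.06 when 1 array was left out. HIF alpha proteins are controlled mainly by degradation, and protein was not measured here.

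**Figure D3:**
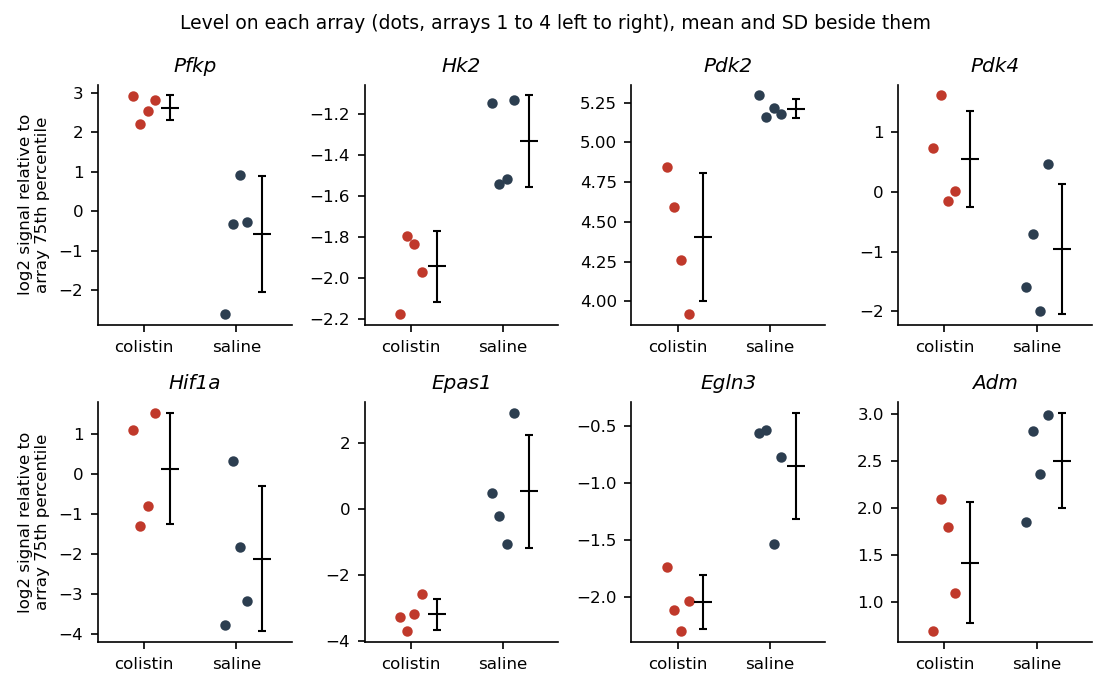
Level of 8 members on each array in log2 units relative to the array's 75th percentile, with colistin left of saline, 1 point per array, and the mean and SD of each group beside the points. The colistin points of Pfkp and Epas1 are close together and the saline points are spread, and the 2 groups do not overlap for Pfkp, Epas1, Egln3, Pdk2 and Hk2.

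Egln3, a prolyl hydroxylase that is itself induced by HIF, was at -1.73, -2.11, -2.30 and -2.04 in colistin kidneys and at -0.56, -0.54, -1.53 and -0.78 in saline kidneys. The groups did not overlap, with saline kidney 3 nearest to the colistin kidneys. Egln3 had a fold change of -1.19 ± 0.33 (95% interval -1.95 to -0.43, adjusted p = 0.108 by limma), a level 2.29-fold lower after colistin. Within slides 1, 2 and 3 it was -1.44, -1.76 and -0.35.

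The 7 HIF target genes had 4 fold changes above 0 and 3 below it, with a median of 0.088. Adm, which encodes the vasodilator peptide adrenomedullin, was at 0.68, 2.10, 1.79 and 1.09 in colistin kidneys and at 1.85, 2.82, 2.36 and 2.98 in saline kidneys. Saline kidney 1 alone lay within the colistin range. The fold change was -1.09 ± 0.43 (adjusted p = 0.19 by limma). Ndrg1, a stress-responsive gene, was at 4.56, 4.14, 4.46 and 3.87 in colistin kidneys and at 3.95, 3.12, 3.94 and 3.13 in saline kidneys. Only colistin kidney 4 fell within the saline range, and the fold change was 0.72 ± 0.34 (adjusted p = 0.251 by limma). With normexp it was 0.87 (adjusted p = 0.0359).

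Bnip3, a mitophagy receptor, was at 2.67 to 3.71 in colistin kidneys and at 2.66 to 3.18 in saline kidneys, with a fold change of 0.31 ± 0.32. Car9, a carbonic anhydrase on the cell surface and a common hypoxia marker, had -0.79 ± 0.47, with values of -3.69 to -2.34 in colistin kidneys and -3.07 to -1.44 in saline kidneys. Neither of these textbook targets passed the test, and the groups overlapped for both. Ankrd37, an ankyrin repeat gene, was at -2.53, -0.17, 0.83 and -1.88 in colistin kidneys and at -3.82, -2.83, -0.016 and -4.53 in saline kidneys, with a fold change of 1.86 ± 1.1. Saline kidney 3 lay within the colistin range and the other 3 below it, and the difference was 4.00 and 3.66 within slides 1 and 2 and -2.19 within slide 3. Without saline arrays 1 and 4 it was 0.49. P4ha1, a collagen prolyl hydroxylase subunit, was at -2.75 to -0.0077 in colistin kidneys and at -3.89 to -0.29 in saline kidneys, with a fold change of 0.088 ± 0.93. Ddit4, an inhibitor of mTOR signalling, was at -4.03 to -1.41 in colistin kidneys and at -3.25 to -1.05 in saline kidneys, with -0.38 ± 0.66, and -1.04 by its second probe. The adjusted p of the 5 targets other than Adm and Ndrg1 was 0.333 to 0.964 in limma's fit.

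Related genes of the set were compared with each other through the difference of their 2 values on each array, in 10 pairs of isoforms chosen after the values had been seen. The fold change of Hif1a exceeded that of Epas1 by 5.96 ± 1.62, and the difference of the 2 genes did not overlap between groups (exact permutation test, two-sided, p = 0.0286, the smallest that 4 against 4 arrays allow, and 0.143 adjusted over the 10 pairs). The fold change of Pdk4 exceeded that of Pdk2 by 2.32 ± 0.64, with the same p-values and no overlap. Without saline arrays 1 and 4 these differences were 3.43 for Hif1a against Epas1 and 2.69 for Pdk4 against Pdk2. For Pfkp against Pfkl it was 2.09 ± 0.94 and for Ldha against Ldhb 1.16 ± 0.46 (exact permutation p = 0.0571 for each, 0.143 adjusted). The adjusted p of the other 6 pairs was 0.408 to 0.8, and no pair passed after adjustment. With 4 against 4 arrays, a few pairs alone could not pass even at the smallest p, so no conclusion is drawn from that. None of these p-values accounts for the choice of pairs after the values had been seen. Epas1 and Pdk2 did not overlap between groups on their own, and the pairs of Pfkp, Pfkl and Pfkm share genes.

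Set side by side, the 23 glycolytic members had a median log2 fold change of -0.25 and the 10 hypoxia members one of -0.15, beside -0.14 for all genes. Relative to all genes these were shifts of -0.11 and -0.0041. The median deviation of the glycolytic members varied between arrays of a group with a pooled SD of 0.15, and that of the hypoxia members with a pooled SD of 0.32. Both shifts were smaller than that spread, which is that of single arrays and not the standard error of a difference between groups. Unlike the shifts, the spread was taken without subtracting the median of all genes. The shifts were not tested. Within slides 1, 2 and 3 the glycolytic median was -0.19, 0.095 and -0.20, and the hypoxia median was -0.35, -0.37 and -0.11. The sign was the same on all 3 slides for 12 of 33 members (36.4%), beside 46.3% of all genes.

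The neighbouring pathways were read from lists of genes outside the set. A list drawn up for renal glucose production had 10 tested genes, of which 1 rose and 2 fell. Of these 10, 7 are gluconeogenic and hold all 3 that passed, while Khk encodes fructokinase and Slc5a1 and Slc5a2 encode sodium-glucose carriers that take up glucose. Slc5a2 is also among the proximal tubule markers below. Pck1, the cytosolic phosphoenolpyruvate carboxykinase that commits carbon to glucose, was at 0.94, -0.12, 1.19 and 0.51 in colistin kidneys and at 4.6, 5.64, 5.36 and 6.39 in saline kidneys. The groups lay far apart, and Pck1 was 29.2-fold lower after colistin (log2 fold change -4.87 ± 0.47, adjusted p = 0.00411 by limma). It passed with each array left out. Pck2, the mitochondrial form, was at 1.58, 1.38, 2.11 and 1.46 in colistin kidneys and at -2.05, -0.45, -2.75 and -2.71 in saline kidneys. It was 12.3-fold higher after colistin (3.62 ± 0.54, adjusted p = 0.0198), and the adjusted p was 0.0533 to 0.0613 when any 1 colistin array was left out. The 2 forms of this enzyme thus went in opposite directions.

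G6pc1, the glucose phosphatase catalytic subunit of liver and kidney that releases free glucose, was at 2.11, 1.54, 1.71 and 0.61 in colistin kidneys and at 4.21, 3.17, 4.32 and 5.51 in saline kidneys. It was 6.99-fold lower after colistin (-2.81 ± 0.55, adjusted p = 0.046 by limma), and with 1 array left out it passed only without saline array 2 (adjusted p 0.0358 to 0.119 over the 8 fits). Fbp1 and Fbp2, the fructose bisphosphatases, did not overlap between groups, with -1.01 ± 0.31 and 3.24 ± 0.91 (adjusted p = 0.13 and 0.11). The median log2 fold change was -0.97 over the 10 genes and -1.01 over the 7 gluconeogenic ones. Markers of the proximal tubule, where these genes act, were present: all 15 were tested, 1 fell (Slc22a6, the organic anion transporter, -1.91 ± 0.33), and their median was -0.31. Fold changes were above 0 for 6 of the 15 markers and below 0 for 9, with Slc5a2 at 1.14 ± 0.47. The adjusted p of Slc22a6 was 0.0297 by limma, 0.118 with slide as a block, 0.102 without saline arrays 1 and 4, and 0.0391 to 0.0919 when 1 array was left out. Summed signals, here and below, are in multiples of the array's 75th percentile, and the brightest probes of a list weigh most in them. For the 15 markers the sum was 428 to 795 in colistin kidneys and 954 to 1622 in saline kidneys. The part of that lower sum in the gluconeogenesis values was not tested, and in bulk tissue fewer cells of a type and less RNA per cell cannot be told apart.

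None of 16 other tested genes for glycolytic enzymes and glucose transporters passed (0 of 16, median -0.32). Slc2a2, the low-affinity glucose transporter of the proximal tubule, had 2.24 ± 0.70 without overlap between groups (adjusted p = 0.137 by limma). None of 14 genes for pyruvate entry and oxidation passed (0 of 14, median -0.23). There Mpc1, a subunit of the mitochondrial pyruvate carrier, had -1.41 ± 0.32 (adjusted p = 0.0742). The pyruvate dehydrogenase phosphatases Pdp1 and Pdp2 had 3.45 ± 0.95 and -1.45 ± 0.52, and the Pdp1 probe was well above background in 1 saline kidney. None of 11 other HIF pathway regulators passed (0 of 11, median -0.0080). Vhl had -0.90 ± 0.31, and Elob and Rbx1, further subunits of the same ubiquitin ligase, had 0.97 ± 0.36 and 0.59 ± 0.27 (adjusted p from 0.158 to 0.235).

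Of 24 other HIF target genes, 1 rose and 1 fell, with a median of -0.034. Angptl4, a secreted inhibitor of lipoprotein lipase induced by both HIFs and PPARs, was at 1.06, 0.46, 0.16 and 0.13 in colistin kidneys and at -3.68, -2.21, -1.82 and -3.77 in saline kidneys. It was 10.0-fold higher after colistin (3.32 ± 0.53, adjusted p = 0.0234 by limma). Without any 1 colistin array its adjusted p was 0.0621 to 0.0687, and without saline array 1 it was 0.05. Ak4, a mitochondrial adenylate kinase abundant in the kidney, was at 3.47, 4.18, 4.41 and 3.27 in colistin kidneys and at 5.99, 5.66, 5.45 and 6.72 in saline kidneys. It was 4.35-fold lower after colistin (-2.12 ± 0.41, adjusted p = 0.046), and it did not pass in any of the 8 fits that left out 1 array (0.0589 to 0.129). The 2 targets that passed went in opposite directions. With slide as a block the adjusted p was 0.143 for G6pc1, 0.116 for Ak4 and 0.0814 for Angptl4, and Pck1 and Pck2 still passed. Without saline arrays 1 and 4 together it was 0.0910 for Pck2, 0.137 for G6pc1, 0.144 for Ak4 and 0.0542 for Angptl4, and Pck1 still passed.

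**Figure D4:**
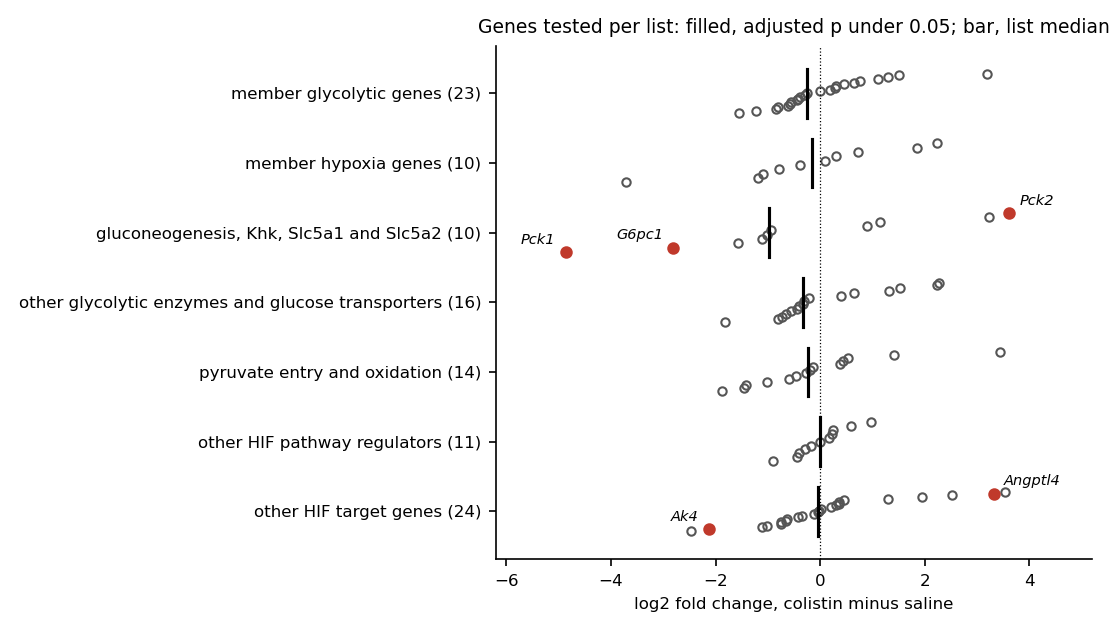
Log2 fold change, colistin minus saline, of each tested gene in the member groups and in the 5 neighbouring pathway lists, with 1 row per list and a bar at the list's median. Filled points are genes that passed the test, with Pck2 and Angptl4 higher and Pck1, G6pc1 and Ak4 lower.

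Markers of the cell types a kidney sample holds were read beside the member genes. Markers of the endothelium, the cells in which Epas1 is best known, were tested for 10 of 12 genes: 4 fell and 0 rose, all 10 fold changes were below 0, and the median was -2.86. Among them Kdr and Plvap fell by 2.87 and 2.85 on the log2 scale (adjusted p = 0.00801 and 0.0101 by limma). With slide as a block 0 of these markers passed (adjusted p 0.0633 for Kdr and 0.0512 for Plvap), and 3 or 4 passed when 1 array was left out. The summed signal of the list was 4.99 to 8.16 in colistin kidneys and 38.2 to 58.8 in saline kidneys, and 1 marker was well above background on no colistin array. The fold change of Epas1 beside these was -3.71, and the part of the endothelial signal in it was not tested. Fibroblast markers, another source of Epas1, had a median of -2.50 over 5 tested, with 1 that fell, and 0 with slide as a block.

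The distal nephron, which uses glucose, had lower summed marker signals after colistin. The summed signal of 9 thick ascending limb markers was 2.38 to 11.3 in colistin kidneys and 39.6 to 83.5 in saline kidneys, with 1 that fell (Egf) and a median of -1.64. That of 6 principal cell markers was 2.03 to 22.7 in colistin kidneys and 35.2 to 46.6 in saline kidneys, and that of 7 intercalated cell markers was 0.49 to 9.99 in colistin kidneys and 22.3 to 32.2 in saline kidneys. Colistin array 1 set the low end of each of these 3 ranges, and without it the colistin sums were 7.81 to 11.3, 10.8 to 22.7 and 2.66 to 9.99, still below each saline sum. Principal cell markers had a median of -1.95, and 0 passed. Intercalated cell markers had a median of -2.74, and 1 fell (Slc26a4). The adjusted p was 0.00655 for Egf and 0.02 for Slc26a4 by limma. Both also passed with slide as a block and without saline arrays 1 and 4. With 1 array left out, Egf passed in each fit, and Slc26a4 did not pass without colistin array 1, 2 or 4. Beside these sums, that of the 23 tested glycolytic members was 329 to 382 in colistin kidneys and 373 to 495 in saline kidneys. The median fold changes of these members by role lay on both sides of 0. They were -0.61 for glucose entry, 0.65 for upper glycolysis, -0.42 for lower glycolysis and 0.19 for lactate enzymes and carriers. For the pyruvate dehydrogenase kinases the median was 0.35 and for the Pfkfb enzymes -0.64, each over 2 tested genes of opposite sign. Of 9 tubular injury markers 4 rose, with a median of 2.14 and a summed signal of 69.4 to 114 in colistin kidneys and 5.48 to 12.3 in saline kidneys, and 3 passed with slide as a block. The part of these cell markers in the member values was not tested.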

How the data were processed

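Total RNA from 8 rat kidney samples was amplified, labelled with Cy3 and hybridised to 1 array each, per the labels. Agilent Feature Extraction 10.5, named in the submitters' processing notes, gave the deposited spot intensity. It was corrected for background and detrended in space, per the file headers, with no scaling between arrays. A series-wide table deposited by the authors held log2 values whose scale and centring are not stated. Its differences between arrays correlated with those of the scanner log2 values at 0.9998 or above over 28 array pairs, all probes had a median within 0.0001 of 0 over the 8 arrays, and the column medians were -0.11, -0.23, -0.09 and -0.03 for colistin arrays 1 to 4 and 0.23, 0.02, 0.09 and 0.20 for saline arrays 1 to 4.

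Control spots and 257 to 461 outlier spots per array were left out. None was saturated. Averaging copies of each probe left 30367 probes. The value used was log2 of processed intensity minus that of the array's 75th percentile. Kept probes (23718) had a spot well above background on 3 or 4 arrays of a group. RefSeq accessions were matched to the GRCr8 gene table without versions, which named 18643 probes of 15637 genes, and each gene was represented by its brightest kept probe (12411 genes). Colistin was compared with saline in limma 3.58.1 (lmFit, then eBayes; R 4.3.3), two-sided. P-values were adjusted over the 12411 genes by Benjamini-Hochberg, and 0.05 was the threshold. The members, lists and tests were chosen with earlier results of these data known. Genes outside the members were named when they passed the test, or when their groups did not overlap, up to 3 per list and direction, and 1 of these is not reported here.

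The arrays lay on 3 slides, per the file headers. Slide 1 held colistin array 2 and saline arrays 1 and 4, slide 2 held colistin array 3 and saline array 2, and slide 3 held colistin arrays 1 and 4 and saline array 3. The alternatives were normexp background correction (on the median spot signal, since no mean signal was in the files used), quantile scaling, 2 other filters, the mean of a gene's probes, the deposited table, slide or replicate number as a block, array weights, leaving out saline arrays 1 and 4 together, and leaving out each array.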

Additional observations from a re-analysis of the deposited data

Results flagged for a closer look

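The values of 48 genes, the tested members and the named pathway genes, were searched in both groups for an array far from the other 3 of its group, and 5 of 96 groups had one by Dixon's test. Chance alone picks out about 1 group in 20. In Pfkm, saline array 4 was at -6.71 (log2 relative to the array's 75th percentile), with the other saline arrays at -0.37 to 0.65, and there the probe was not well above background. In Aldoa, saline array 4 was at 4.18, with the others at 2.07 to 2.38. In Pfkfb3, colistin array 1 was at 2.65, with the others at -1.42 to -0.99. In Mpc1, saline array 1 was at 5.51, with the others at 5.82 to 5.87. In Elob, colistin array 4 was at 3.96, with the others at 3.31 to 3.39.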

How the results depend on the processing

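No member passed in the main setting. The count of members that passed was 6 with normexp, 1 with quantile scaling, 2 with array weights, and 0 to 2 when 1 array was left out. The count over all genes, 248 in the main setting, was 3390 with normexp, 40 with slide as a block, 143 without saline arrays 1 and 4, and 78 to 255 when 1 array was left out (98, 106, 110 and 78 without colistin arrays 1 to 4). Higher genes were 73.0% of those that passed in the main setting, 20.2% with normexp, 59.6% where only probes bright on each of the 8 arrays were kept and 87.5% with the slide block. The median of all genes was -0.14, and -0.34 with normexp. With the replicate number as a block 5 genes and 0 members passed. Same-numbered arrays did not deviate together (correlations 0.00047, 0.0024, 0.013 and -0.020), so no pairing by number was seen in these values. The labels do not say whether the numbers pair samples. The glycolytic median of -0.25 became 0.029 with quantile scaling, -0.087 with slide as a block, 0.095 within slide 2, and -0.30 to -0.046 when 1 array was left out. The hypoxia median of -0.15 became 0.18 with slide as a block, 0.22 without saline arrays 1 and 4, and -0.58 to 0.31 when 1 array was left out. Within single slides there is no test, so no genes were counted there. Of 592 alternative fits of single members, 553 kept both direction and side of the threshold, 13 passed it, and 26 turned direction. Turned values were those of Pfkm (-0.48 with normexp, -0.44 with array weights, -1.06 without saline arrays 1 and 4, and -1.27 to 1.18 when 1 array was left out), Pgam1 (-0.043 with slide as a block, -0.022 without saline arrays 1 and 4, -0.28 to 0.27 when 1 array was left out) and Ddit4 (0.021 with slide as a block, 0.29 without saline arrays 1 and 4, -0.75 to 0.12 when 1 array was left out). Tpi1 was at 0.092 and Slc16a1 at -0.66 without saline arrays 1 and 4, Gapdh at 0.090 with quantile scaling, P4ha1 at -0.12 with normexp, and Pfkfb3 at -0.62 as the mean of its probes. When 1 array was left out the range was -0.69 to 0.52 for P4ha1, -0.67 to 0.68 for Pfkfb3, -0.14 to 0.83 for Slc2a1 and -1.89 to 0.52 for Hk1. Without saline arrays 1 and 4, with direction kept, the value was 0.80 for Slc2a1, -1.68 for Hk1, -1.02 for Pkm, -0.84 for Pfkfb4, 0.88 for Hif1a, 0.49 for Ankrd37 and 1.24 for P4ha1. The cause of these changes was not tested.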

Other observations

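Marker lists of 7 further cell types had medians below 0, beside -0.14 for all genes. Of 8 podocyte markers 1 fell (Podxl, which encodes podocalyxin, -3.15 ± 0.51, log2 fold change ± SE, n = 4 per group, limma), with a median of -1.03. Of 9 smooth muscle and pericyte markers 1 fell (Mcam, -3.88 ± 0.67), with a median of -1.13. Of 10 tested macrophage and monocyte markers 1 fell (Ctss, the protease cathepsin S, -2.01 ± 0.38), with a median of -1.27. In that list 9 fold changes were below 0 and 1 was above it, at 2.22 without overlap between groups. Without colistin array 2, Cd14 of that list passed as higher and Ctss did not pass. Of 5 tested lymphocyte markers 1 fell (Cd4, -1.59 ± 0.31), with a median of -0.96. Of 5 tested erythrocyte markers 2 fell, the globin genes Hbb (-3.74 ± 0.60) and Hba-a1 (-2.79 ± 0.39), and the summed signal of the list, in multiples of the array's 75th percentile, was 7.55 to 16.3 in colistin kidneys and 57.6 to 86.0 in saline kidneys. None of 3 tested neutrophil markers passed (0 of 3, median -1.39), and none of 3 tested distal convoluted tubule markers passed (0 of 3, median -1.24). With slide as a block none of the 6 genes named here passed, and their adjusted p was 0.0783 to 0.143 (limma). Podxl passed without saline arrays 1 and 4 (adjusted p = 0.0383), and the other 5 did not (0.0564 to 0.115).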
